A study of Homo with 4 samples.

Results

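Fatty acids are built from citrate in the cytosol. ACLY splits citrate into acetyl-CoA, the acetyl-CoA carboxylases ACACA and ACACB turn acetyl-CoA into malonyl-CoA, and fatty acid synthase (FASN) condenses these units into palmitate with NADPH as reductant. Desaturases (SCD, FADS1 and FADS2) then introduce double bonds and elongases (ELOVL5 and ELOVL6) lengthen the chain, while SREBF1 encodes the transcription factor SREBP-1, which drives many of these genes.

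These 10 genes (SREBF1, ACLY, ACACA, ACACB, FASN, SCD, FADS1, FADS2, ELOVL5 and ELOVL6) were followed step by step in RNA-seq of H1299 cells, a human cell line established from a non-small cell lung cancer. They were chosen by name, and each was found by matching the Ensembl genes of the deposited count table to RefSeq genes by position on GRCh38. They are 10 of 20263 genes and hold 85 of 95139 transcripts. The cells carried either a control hairpin (shCtrl, n = 2 libraries) or a hairpin that lowers IGF2BP3 (shIGF2BP3, n = 2), an RNA-binding protein that can stabilise the mRNAs it binds, and the comparison asks how the RNA of the lipogenic genes differed with that hairpin. The labels call the 2 libraries of each group biological replicates, without saying whether they came from separate infections. Hairpins were delivered by lentivirus in both groups. The study speaks of hairpins against IGF2BP3 in the plural, and which of them each shIGF2BP3 library carries is not given in the sources used here, so the spread within shIGF2BP3 may include a difference between hairpins. Counts come from bulk RNA, in which fewer cells expressing a gene and less RNA per cell cannot be told apart.

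Total counts ran from 29709686 to 34817513 per library, and replicates differed by far more than sampling noise (chi-square per degree of freedom 78.9 in shCtrl and 77.5 in shIGF2BP3). Values are given as CPM (each count over its library's total in units of 1e+06 counts, with totals scaled by the TMM method). IGF2BP3 itself had 41.1 and 32.9 CPM in shCtrl and 26.4 and 24.8 CPM in shIGF2BP3, so that 69.1% of its level was left (log2 fold change −0.53, SE 0.17, adjusted p = 0.472 in the quasi-likelihood fit of edgeR, with Benjamini-Hochberg adjustment over the 13379 genes tested), short of a 1.5-fold difference. The labels describe H1299 as epithelial. KRT8 and KRT18 were abundant, at 698 CPM or more, but KRT19, EPCAM and CDH1 did not exceed 0.354 CPM. The mesenchymal markers VIM (4337 to 7098 CPM), CDH2 (28.4 to 37.2 CPM) and FN1 (13.9 to 32.2 CPM) passed the filter on low counts. The fibroblast markers COL1A1 and DCN also passed, at no more than 1.07 CPM, but LUM did not. None of the 4 adipocyte and hepatocyte markers passed (at most 0.0885 CPM), and no leukocyte or endothelial marker did.

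All 10 lipogenic genes had a fitted log2 fold change below 0, where 50.2% of the 13379 genes tested did. The median was −0.29, a 1.23-fold lower level in shIGF2BP3, against −0.00 over all genes, and 19.4% of genes lay at or below the members' median. In 7 of the 10 neither shIGF2BP3 library reached the lower shCtrl library, an arrangement found in 23.5% of all genes. FADS2 was the 1 member past the study's thresholds (1.5-fold or more, with p before adjustment no higher than 0.05). These called 5.32% of all genes, 2.78% lower and 2.54% higher. At an adjusted p under 0.05, edgeR's quasi-likelihood test called 0 of the 10, and 0.0% of all genes, while 1411 genes met 0.05 before adjustment. On p before adjustment alone, 2 of the 10 members (SREBF1 and FADS2) met 0.05 with a lower level, beside 5.12% of all genes. DESeq2 called 160 genes and edgeR's exact test 101 genes at an adjusted p under 0.05, with 0 members among them.

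**Figure D1:**
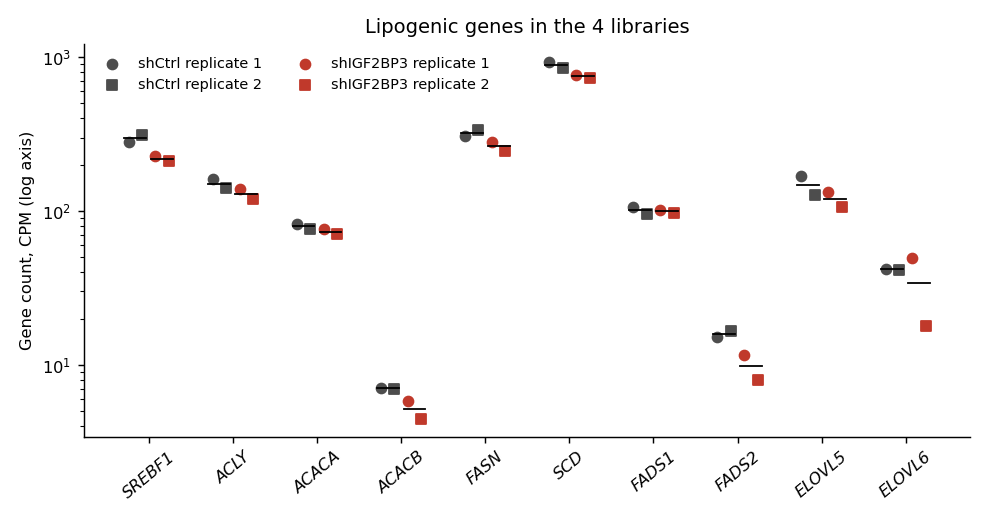
CPM of each lipogenic gene on a log axis, in the order of the pathway, with 1 point per library and a bar at the mean of each group. Both shIGF2BP3 points lie below both shCtrl points in 7 genes, and the groups overlap in FADS1, ELOVL5 and ELOVL6.

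**Figure D2:**
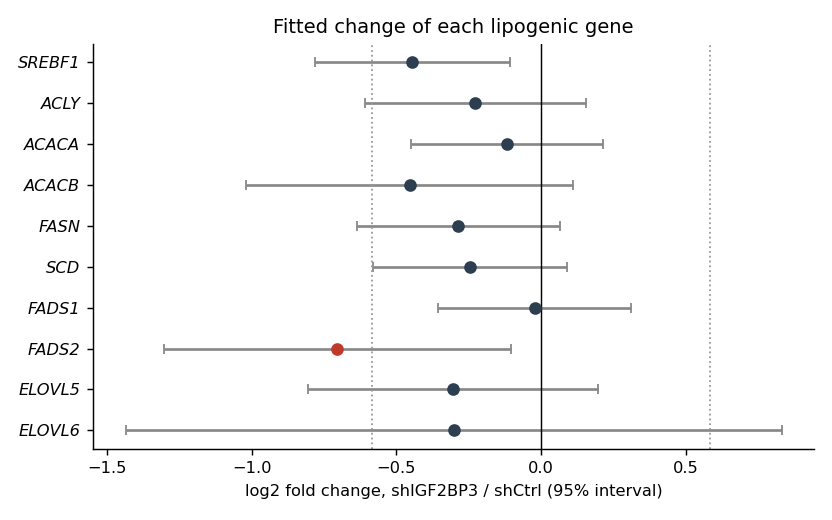
Fitted log2 fold change of each lipogenic gene with its 95% confidence interval, from 2 libraries per group. The dotted lines mark a 1.5-fold change, and FADS2, in red, is the gene past the study's thresholds. The intervals of SREBF1 and FADS2 lie below 0, and that of ELOVL6 is the widest.

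Levels of different genes were compared as FPKM, which is scaled by transcript length. In shCtrl the desaturase SCD was the highest, with 159.1 and 131.4 FPKM, followed by SREBF1 with 98.1 and 105.8 FPKM and ELOVL5 with 56.2 and 38.4 FPKM. FASN (34.4 and 33.0 FPKM) and ACLY (35.2 and 27.6 FPKM) overlapped in level. FADS1 came next with 22.5 and 18.4 FPKM, then ACACA (15.8 and 7.24 FPKM) and ELOVL6 (10.0 and 8.55 FPKM), which overlapped. FADS2 had 5.16 and 5.19 FPKM, and ACACB, the carboxylase isoform bound to mitochondria, was lowest with 0.696 and 0.645 FPKM. The order of the group means was the same in shIGF2BP3, where FASN and ACLY again overlapped, and so did ELOVL6 and FADS2. Part of SREBF1's sum came from a short transcript, ENST00000478616, which had 18 and 29.2 FPKM in shCtrl.

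SREBF1 (ENSG00000072310, chromosome 17 from 17810399 to 17837002, minus strand) had 282.8 and 311.2 CPM in shCtrl and 226.9 and 209.7 CPM in shIGF2BP3. Both shIGF2BP3 libraries were below both controls, and 73.5% of the level was left. The log2 fold change was −0.44 (SE 0.13, 95% interval −0.78 to −0.11, edgeR adjusted p = 0.472), short of the 1.5-fold threshold. The transcripts of SREBF1 begin at 7 sites, of which 3 held most of the count. The leading transcript, ENST00000395757, begins 17051 bases downstream of the first site and had 94.0 and 109.3 CPM in shCtrl and 66.9 and 42.7 CPM in shIGF2BP3. This was the 1 transcript called among the 32 member transcripts tested (log2 fold change −0.87, SE 0.29, edgeR adjusted p = 0.759), where 6.3% of 37927 transcripts were called. Its call was lost without shCtrl replicate 1 (−0.95), shCtrl replicate 2 (−0.78) or shIGF2BP3 replicate 2 (−0.58). ENST00000395756, which begins 18675 bases downstream of the first site, had 77.9 and 60.2 CPM in shCtrl and 61.9 and 44.5 CPM in shIGF2BP3. Transcripts from the most upstream site summed to 68.0 and 79.4 CPM in shCtrl and 57.8 and 87.1 CPM in shIGF2BP3, and the groups overlapped at both of these sites. The upstream site held 24.0%, 25.5% and 25.5% of the gene's count in shCtrl 1, shCtrl 2 and shIGF2BP3 1, but 41.5% in shIGF2BP3 2. That library alone had a higher count of ENST00000355815, at 34.0 CPM against 10.7 to 14.8 CPM in the others. A test of unequal change among the transcripts of SREBF1 gave an adjusted p of 0.905 (edgeR's diffSpliceDGE).

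ACLY (ENSG00000131473, chromosome 17 from 41866908 to 41930542, minus strand) had 161.2 and 140.3 CPM in shCtrl and 138.5 and 119.0 CPM in shIGF2BP3. The groups did not overlap, but shCtrl 2 and shIGF2BP3 1 were nearly level. ACLY was fitted at a log2 fold change of −0.23 (SE 0.15, 95% interval −0.61 to 0.15, edgeR adjusted p = 0.586). Its main transcript, ENST00000353196, held 90.2% to 91.7% of the count in every library.

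The carboxylase ACACA (ENSG00000278540, chromosome 17 from 37084988 to 37406780, minus strand) had 82.8 and 76.6 CPM in shCtrl and 76.3 and 70.6 CPM in shIGF2BP3. The nearest libraries of the 2 groups differed by less than the 2 controls did. ACACA was fitted at a log2 fold change of −0.12 (SE 0.13, 95% interval −0.45 to 0.21, edgeR adjusted p = 0.737), an interval that leaves out a 1.5-fold lower level. Below this even gene sum the transcripts were uneven. ENST00000619546, which starts 200968 bases downstream of ENST00000616317, held 89.0% of the count in shCtrl 1 and 0 counts in the other 3 libraries. There ENST00000616317 held 90.0% to 98.8%, against 8.86% in shCtrl 1. The FPKM of ACACA in shCtrl 1 (15.8) was above the 7.24 to 8.28 FPKM of the other libraries, while its CPM differed little from theirs.

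ACACB (ENSG00000076555, chromosome 12 from 109116595 to 109268226, plus strand) was scarce, with 267 and 236 counts in shCtrl and 200 and 123 counts in shIGF2BP3. These were 7.10 and 6.96 CPM against 5.79 and 4.47 CPM, without overlap. ACACB was fitted at a log2 fold change of −0.45 (SE 0.23, 95% interval −1.02 to 0.11, edgeR adjusted p = 0.512), similar in size to that of SREBF1 with a wider interval.

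FASN (ENSG00000169710, chromosome 17 from 82078333 to 82098332, minus strand) had 306.0 and 335.0 CPM in shCtrl and 279.3 and 246.5 CPM in shIGF2BP3. Every shIGF2BP3 library was below every control, and 82.0% of the level was left (95% interval 64.4% to 104.6%). The log2 fold change was −0.29 (SE 0.14, 95% interval −0.64 to 0.06, edgeR adjusted p = 0.511). The interval holds no difference as well as a 1.5-fold lower level, and excludes a 2-fold lower level. FASN sat near the median of the 10 members.

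Nearly the whole count of FASN came from 2 transcripts whose 5′ ends lie 145 bases and whose 3′ ends lie 7 bases apart. ENST00000634990 had 183.5 CPM in shCtrl 1, 0 in shCtrl 2, 152.8 CPM in shIGF2BP3 1 and 220.8 CPM in shIGF2BP3 2. ENST00000306749 had 121.6, 334.5, 125.6 and 25.0 CPM in the same order. The leading transcript was ENST00000634990 in 3 libraries and ENST00000306749 in shCtrl 2, so the 2 controls differed in it, while the sum (305.1, 334.5, 278.4 and 245.7 CPM) followed the gene. Fitted alone, ENST00000634990 had a log2 fold change of 1.02 (SE 3.04) and ENST00000306749 one of −1.57 (SE 1.04), with edgeR adjusted p of 0.998 and 0.900. The direction for FASN was read from the gene sum only.

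**Figure D3:**
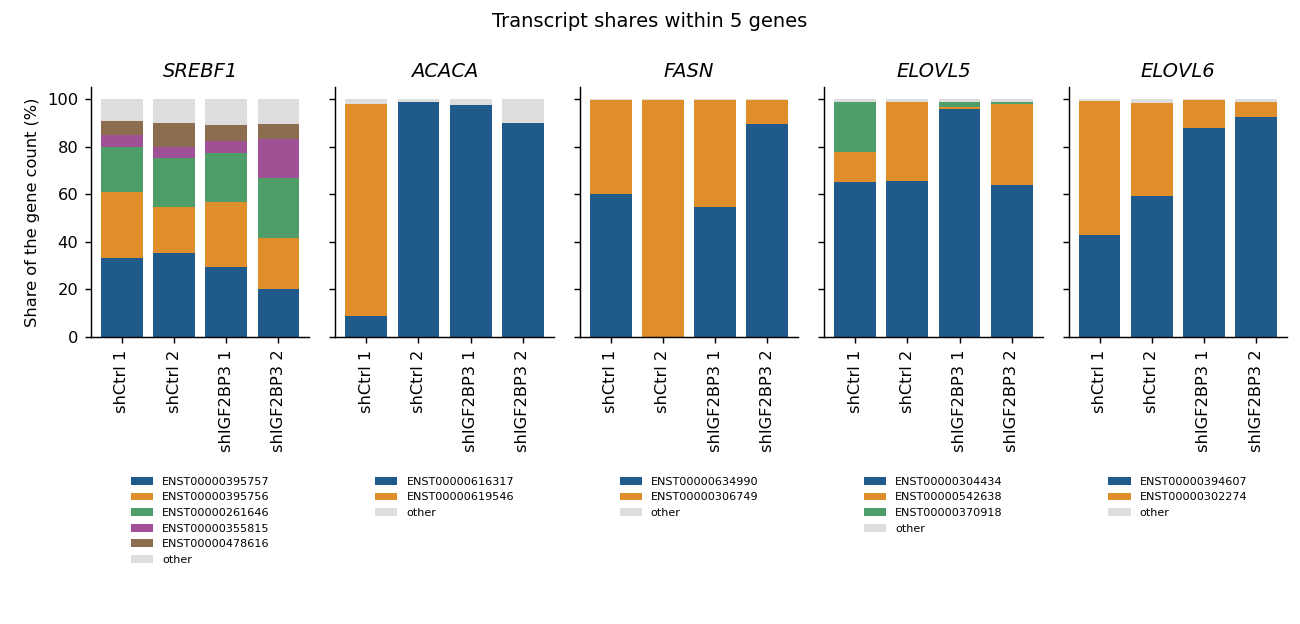
Share of each gene's count (%, stacked bars) held by its named transcripts, those with at least 5% of the count on average, in each of the 4 libraries. In FASN, ACACA and ELOVL6 the leading transcript is not the same in the 2 shCtrl libraries. In ELOVL6 both shIGF2BP3 libraries hold less of ENST00000302274 than both controls.

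SCD (ENSG00000099194, chromosome 10 from 100347124 to 100364834, plus strand), which makes monounsaturated from saturated fatty acids, had 932.1 and 852.9 CPM in shCtrl and 769.6 and 736.5 CPM in shIGF2BP3. The groups were separate. Its fitted log2 fold change was −0.25 (SE 0.13, 95% interval −0.58 to 0.09, edgeR adjusted p = 0.526), and the interval just leaves out a 1.5-fold lower level. All of its count came from 1 transcript, ENST00000370355.

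FADS1 and FADS2 encode the delta-5 and delta-6 desaturases of polyunsaturated fatty acid synthesis and lie next to each other on chromosome 11. FADS1 (ENSG00000149485, 61799625 to 61829318, minus strand) had 106.1 and 95.4 CPM in shCtrl and 101.1 and 97.4 CPM in shIGF2BP3. Both shIGF2BP3 libraries lay between the controls, with a log2 fold change of −0.02 (SE 0.13, 95% interval −0.35 to 0.31, edgeR adjusted p = 0.962). FADS2 (ENSG00000134824, 61792980 to 61867354, plus strand) had 574 and 562 counts in shCtrl and 401 and 218 counts in shIGF2BP3, or 15.3 and 16.6 CPM against 11.6 and 7.91 CPM. The groups were separate in the gene sum and 61.4% of the level was left, a 1.63-fold lower level. The log2 fold change was −0.70 (SE 0.24, 95% interval −1.30 to −0.10, edgeR adjusted p = 0.472).

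The call for FADS2 depended on single libraries. It was lost without shCtrl replicate 1 (log2 fold change −0.76), shCtrl replicate 2 (−0.64) or shIGF2BP3 replicate 2 (−0.46), and held without shIGF2BP3 replicate 1 (−1.0). On log2(FPKM + 1) the difference was −0.49, under the fold threshold. FADS2 also overlaps FEN1 on its own strand, but only through ENST00000574708, which had 0 and 2 counts in shCtrl and 0 and 11 counts in shIGF2BP3. The main transcripts of FADS1 and FADS2 share 907 bases on opposite strands, and whether strand was used in counting is not given in the sources used here. ENST00000257261 held most of FADS2 in every library, from 64.6% in shCtrl 1 to 90.6% in shCtrl 2. For this main transcript the groups overlapped, as shCtrl 1 had 9.87 CPM and shIGF2BP3 1 had 10.40 CPM. shCtrl 2 was highest and shIGF2BP3 2 lowest, at 6.64 CPM. Its log2 fold change was −0.52 (SE 0.43, edgeR adjusted p = 0.934). A second transcript, ENST00000278840, held 24.2% in shCtrl 1, or 3.70 CPM, and at most 0.459% elsewhere. The separation of the gene sums was thus not seen in the main transcript alone.

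ELOVL5 (ENSG00000012660, chromosome 6 from 53267398 to 53349179, minus strand), which elongates polyunsaturated chains, had 168.1 and 126.3 CPM in shCtrl and 132.3 and 106.3 CPM in shIGF2BP3. The groups overlapped, and the log2 fold change of −0.30 (SE 0.20, 95% interval −0.80 to 0.20, edgeR adjusted p = 0.581) was −0.08 without shCtrl replicate 1. Its leading transcript, ENST00000304434, held 64.0% to 65.8% of the count in 3 libraries and 95.8% in shIGF2BP3 1.

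ELOVL6 (ENSG00000170522, chromosome 4 from 110045846 to 110199199, minus strand) elongates palmitate to stearate. It had 41.9 and 41.5 CPM in shCtrl and 49.6 and 18 CPM in shIGF2BP3. One shIGF2BP3 library was above both controls and the other was far below them. ELOVL6 was fitted at a log2 fold change of −0.30 (SE 0.45, 95% interval −1.43 to 0.83, edgeR adjusted p = 0.805). It turned to 0.25 without shIGF2BP3 replicate 2 and to −1.20 without shIGF2BP3 replicate 1. Each of these fits takes the lone shIGF2BP3 library to vary as the 2 controls do. On log2(FPKM + 1) the difference was −0.87 with all 4 libraries (limma adjusted p = 0.477). In FPKM shIGF2BP3 1 (7.69) lay below both controls (10.0 and 8.55), although its CPM lay above both. FPKM is scaled by transcript length, so this difference can also reflect which transcripts held the count.

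Nearly all of the ELOVL6 count came from 2 transcripts, whose shares, unlike the gene sum, differed from shCtrl in the same direction in both shIGF2BP3 libraries. ENST00000302274, which ends 3541 bases before the other, had 23.7 and 16.2 CPM in shCtrl and 5.74 and 1.13 CPM in shIGF2BP3. Its share of the gene was 56.4% and 39.0% in shCtrl against 11.6% and 6.25% in shIGF2BP3. The 2 controls differed in the leading transcript, as ENST00000394607 led in shCtrl 2 with 59.4%. ENST00000394607, with the more distal end, had 18 and 24.6 CPM in shCtrl and 43.7 and 16.7 CPM in shIGF2BP3, above both controls in one library and below both in the other. The log2 fold changes were −2.52 (SE 0.98, edgeR adjusted p = 0.810) and 0.53 (SE 0.58, adjusted p = 0.963). ENST00000302274 was not called in this fit or with library totals. It was called with DESeq2, with at least 10 counts in every library, with a replicate block and with limma on log2(FPKM + 1). Its adjusted p stayed above 0.05 in each, the lowest being 0.0742 with DESeq2. The test of unequal change gave an adjusted p of 0.388 for ELOVL6 and 0.338 for ACLY (edgeR's diffSpliceDGE). Of the 8 members that could be tested in this way 0 passed an adjusted p of 0.05, where 5.21% of 8479 genes did, and ACLY was the 1 to meet 0.05 before adjustment, as 13.1% of genes did. Over the 20 named transcripts of the 9 members with more than 1 transcript, 4 had shares that did not overlap between the groups, namely both of ELOVL6, ENST00000395757 of SREBF1 and ENST00000590151 of ACLY. By the same rule 34.1% of 26163 transcripts of the genes tested had shares without overlap, so the members had no more than the background.

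One library recurred across the pathway. In 9 of the 10 genes the lowest CPM was in shIGF2BP3 2, the lowest library for 31.5% of all genes tested, and FADS1 was lowest in shCtrl 2. The highest CPM was in shCtrl 1 for 6 members, in shCtrl 2 for 3 and in shIGF2BP3 1 for ELOVL6. Of all genes tested, 24.4%, 28.2% and 16.3% were highest in these libraries. shIGF2BP3 2 also had the smallest total count (29709686) and the largest share of mitochondrially encoded counts, 17.02% against 9.11%, 13.43% and 11.42% in shCtrl 1, shCtrl 2 and shIGF2BP3 1. The members' median stayed at −0.29 with the mitochondrial genes left out of the totals. Without shIGF2BP3 replicate 2 it was −0.18, with 8 of 10 genes below 0, and without shIGF2BP3 replicate 1 it was −0.42, with 10 of 10.

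**Figure D4:**
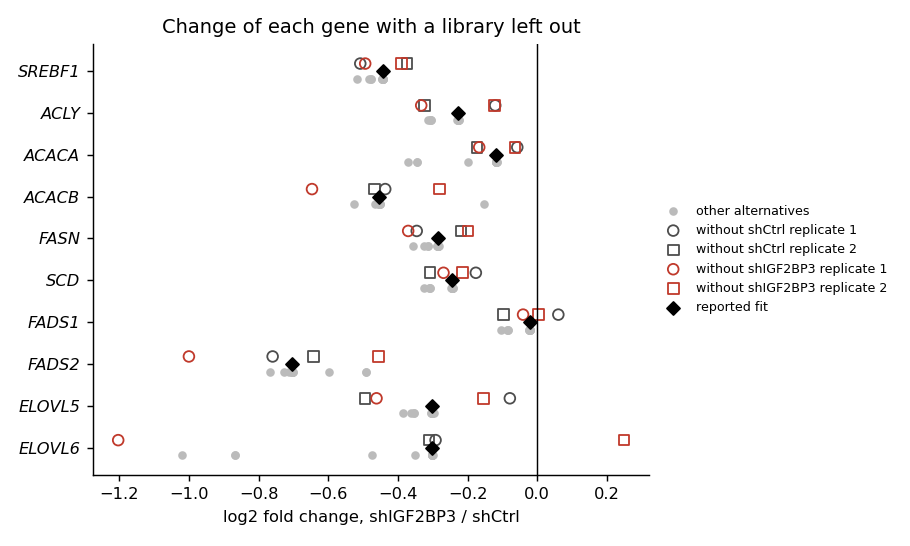
Log2 fold change of each lipogenic gene as reported (diamonds), with each library left out in turn (open symbols) and under the other alternatives (grey). FADS1 and ELOVL6 cross 0 with a library left out, ELOVL6 running from −1.20 to 0.25, and the other 8 genes stay below 0 throughout.

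The genes around these steps did not share the members' direction. In 8 lists covering 105 genes (102 named by position, 90 tested), 44 genes had a fitted value below 0 and 46 above, with a median log2 fold change of 0.01. At the study's thresholds 1 was called higher and 3 lower, beside 2.54% and 2.78% of all genes. On p before adjustment alone, 9 of the 90 met 0.05 with a lower level, beside 5.12% of all genes, and 2 with a higher level. Of all 13379 genes tested, 1411 met 0.05 in either direction. None of the genes named from these lists had an adjusted p under 0.112 in edgeR's quasi-likelihood test.

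Genes of the elongation cycle other than ELOVL5 and ELOVL6 were above 0 in 9 of 10 cases, with a median of 0.30 and 0 calls. Over all genes tested, 50.2% were below 0. The groups overlapped in ELOVL1, ELOVL2, ELOVL3, HSD17B12, HACD1 and TECR. ELOVL1, for example, had 121.1 and 124.2 CPM in shCtrl and 265.3 and 93.5 CPM in shIGF2BP3. In ELOVL4, ELOVL7 and HACD2 both shIGF2BP3 libraries were above both controls. HACD2, a dehydratase of this cycle, had 54.3 and 47.1 CPM in shCtrl and 57.2 and 66.2 CPM in shIGF2BP3. Its relative HACD3 was the exception below 0, with 170.0 and 169.1 CPM against 159.8 and 147.4 CPM. Of the 7 tested genes of desaturation and its electron transport, 4 were below 0 and 3 above, and DEGS1, the dihydroceramide desaturase, was called higher. DEGS1 had 35.2 and 33.0 CPM in shCtrl and 74.4 and 73.7 CPM in shIGF2BP3 (log2 fold change 1.12, SE 0.13, edgeR adjusted p = 0.112), and its call held with each library left out. DESeq2 and edgeR's exact test both put DEGS1 at an adjusted p under 0.05. CYB5R3, which passes electrons to cytochrome b5, had 92.2 and 100.7 CPM against 65.6 and 65.4 CPM (−0.56, edgeR adjusted p = 0.472). With DESeq2 its adjusted p was 0.0303.

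In the supply of citrate and acetyl-CoA, 7 of 9 genes were below 0 (median −0.18). The citrate synthase gene CS was called lower, with 69.3 and 276.3 CPM in shCtrl and 47.7 and 29.4 CPM in shIGF2BP3, but shCtrl 2 stood far above the rest, and CS overlaps another Ensembl gene on its strand. Without shCtrl replicate 2 its log2 fold change of −2.16 became −0.85 and the call was lost, and it was also lost without shIGF2BP3 replicate 2 (−1.86). In the supply of NADPH 6 of 11 genes were below 0 (median −0.07), and ALDH1L2, a mitochondrial folate enzyme, was called lower with 3.83 and 3.84 CPM against 0.985 and 2.36 CPM (−1.21). That call held only without shIGF2BP3 replicate 2 (−1.96) among the fits with a library left out. It was lost without shCtrl replicate 1 (−1.20), shCtrl replicate 2 (−1.21) and shIGF2BP3 replicate 1 (−0.69).

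The control of malonyl-CoA held 8 of 12 genes below 0 (median −0.09) and 0 calls. PRKAB1, a subunit of the AMP-activated kinase that inhibits both carboxylases, had 42.7 and 42.0 CPM in shCtrl and 33.8 and 29.6 CPM in shIGF2BP3, and the catalytic subunit PRKAA1 had 62.6 and 50.4 CPM against 61.8 and 67.5 CPM. SREBP processing and lipogenic transcription held 10 of 19 genes below 0 (median −0.08) and 0 calls. USF1 had 51.0 and 49.0 CPM in shCtrl and 42.2 and 33.8 CPM in shIGF2BP3, and NFYB, a subunit of the CCAAT-binding factor NF-Y, had 29.4 and 30.5 CPM against 39.5 and 40.7 CPM.

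Among genes that use acyl-CoA after synthesis, 5 of 12 were below 0 (median 0.08). AGPAT2, an acyltransferase of phosphatidic acid synthesis, was called lower with 60.6 and 36.3 CPM in shCtrl and 26.1 and 29.0 CPM in shIGF2BP3 (−0.82, SE 0.27, edgeR adjusted p = 0.472). Its call was lost without shCtrl replicate 1 (−0.40) and without shIGF2BP3 replicate 1 (−0.73). The separate mitochondrial fatty acid synthesis pathway had 3 of 10 genes below 0 (median 0.07) and 0 calls. HSD17B8 had 16.2 and 17.7 CPM against 13.7 and 10.5 CPM, and LIAS, the lipoic acid synthase, had 30 and 30.7 CPM against 35.9 and 40.2 CPM.

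**Figure D5:**
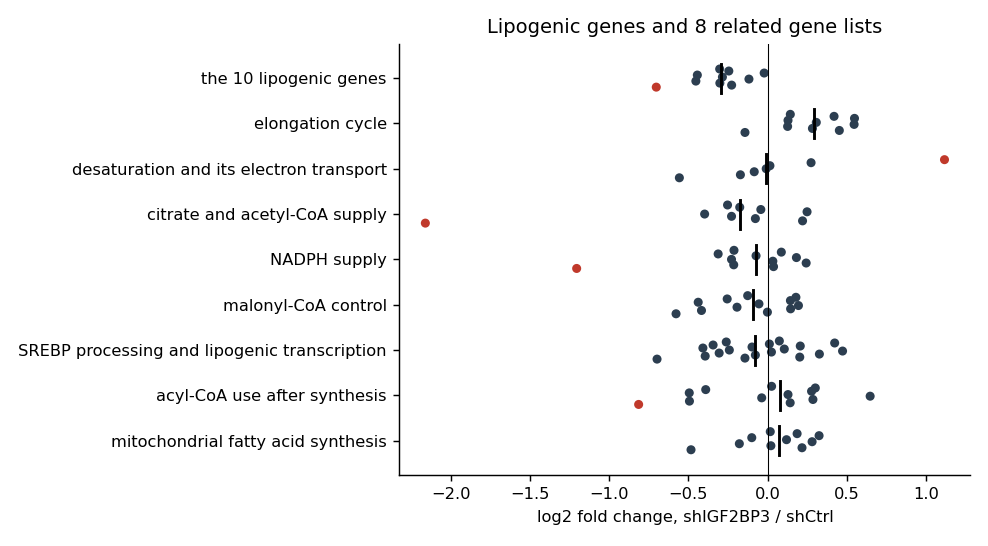
Log2 fold change of every tested gene (1 point each) in the 10 lipogenic genes and in 8 lists of related genes, with a bar at each median and genes past the study's thresholds in red. The lipogenic genes all lie below 0 (median −0.29), while 9 of the 10 other elongation genes lie above it (median 0.30). None of these elongation genes was past the thresholds, and the groups overlapped in most of them.

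The named genes whose log2 CPM profile over the 4 libraries was most like that of FASN were THOC5, AKR7A2 and FKBP4, by the root mean square difference of centred log2(CPM + 0.5) values (0.00985, 0.00995 and 0.0123). FKBP4, for example, had 315.9, 341.3, 291.4 and 253.4 CPM. Among 12650 named genes SREBF1 ranked 840 by this measure, ahead of SCD (1380), ACACB (1526), ACLY (1955) and ACACA (2011). FADS1 (3849), ELOVL5 (4839), FADS2 (6511) and ELOVL6 (11391) were further off, and each rank rests on 4 values per gene.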

How the data were processed

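RNA-seq libraries of shCtrl and shIGF2BP3 H1299 cells (n = 2 each) were grouped by their sample labels. For each transcript the authors deposited an estimated count, a whole number that is not normalized, and an FPKM value, which is scaled by transcript length and library size. Per the labels, processing named CASAVA, FastQC, Trimmomatic, HISAT2, bedtools and GRCh38, and the counter and the annotation are not given in the sources used here. Column names give numbers 2 and 3 to the shIGF2BP3 libraries that the labels call replicates 1 and 2.

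Counts of 95139 transcripts were summed to 20263 genes. A symbol was given to 18222 of them where a gene and a RefSeq gene of GRCh38.p14 were each other's best overlap (shared part at least 0.5 of their joint length, lead 0.2). For the tests on genes and on transcripts, edgeR 4.0.16 was run under R 4.3.3 (TMM, filterByExpr with a minimum count of 10 and total of 15, glmQLFit, glmQLFTest, prior count 0.125), and transcript use with diffSpliceDGE. Benjamini-Hochberg adjustment covered all features tested. The p-values set each difference against the spread between 2 libraries per group, moderated by the spread of all features tested. The biological coefficient of variation was 22.8% for genes and 85% for transcripts, so replicates more than depth set the precision. TMM factors ran from 0.927 to 1.085. The steps were tested on simulated data in which genes changed by more than any member's fitted change. Recovery of changes as small as those of the members was thus not tested.

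The genes named were the 10 members, IGF2BP3, in each related list the genes called and the smallest p in each direction, the 3 profiles nearest to FASN, and member transcripts with at least 5% of the gene count. The members, lists and rules were chosen with earlier results of these data known. Alternatives were DESeq2 1.42.0, edgeR's exact test, RLE factors, library totals, totals without mitochondrial genes, 2 other filters, counts of 1 set to 0, a replicate block, limma 3.58.1 on log2(FPKM + 1) or log2(FPKM + 0.1), and each library left out, where the lone library of a group is assumed to vary as the other group does.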

Additional observations from a re-analysis of the deposited data

How the results depend on the processing

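The 10 members kept a median log2 fold change between −0.36 and −0.29 under every alternative that kept all 4 libraries, and between −0.42 and −0.18 with a library left out. Of the members tested, 10 of 10 had fitted values below 0 under the count alternatives with 4 libraries. Over all genes this share was 60.1% with library totals and 49.9% to 50.3% in the other count fits. Under limma with the FPKM filter 9 of 9 members were below 0 (ACACB was not kept), where 60.4% to 60.5% of all genes were. With a library left out 8 to 10 members were below 0, beside 49.4% to 50.6% of all genes. Among alternatives that kept all 4 libraries, the count of members called lower, 1 as reported, was 0 under limma on log2(FPKM + 1), with and without its filter. This count also varied with a library left out. Member transcripts called, 1 as reported, were 3 with DESeq2, 3 with at least 10 counts in every library, 2 with limma on log2(FPKM + 1), 0 with library totals, and 1 to 4 with a library left out. Related genes called lower, 3 as reported, were 5 with limma on log2(FPKM + 0.1) and 1 to 5 with a library left out, and those called higher, 1 as reported, were 2 in each such fit. No member's gene sum and no shift in transcript use passed an adjusted p of 0.05 under any alternative run, while 1 member transcript did with DESeq2, ENST00000393896 of ACLY (−1.15, adjusted p = 0.0391). Library totals moved the median of all genes to −0.08. Limma with the FPKM filter moved it to −0.07 on log2(FPKM + 1) and −0.08 on log2(FPKM + 0.1).

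The replicate numbers were not shown to pair the libraries: the correlation of deviations between same-numbered libraries was 0.022. With the replicate block FADS2 was still the 1 member called (−0.73), 772 genes were called in place of 712, and 1 member transcript was called, ENST00000302274 of ELOVL6 in place of ENST00000395757 of SREBF1. The block turned ELOVL5 ENST00000370918 to 0.21 and ENST00000304434 to −0.019.

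Other directions that turned were those of NNT under limma (−0.085 on log2(FPKM + 1) with and without the filter, −0.11 on log2(FPKM + 0.1)) and ELOVL5 ENST00000304434 (−0.053 with library totals, −0.10 with limma). With a library left out the ranges crossed 0 for FADS1 (−0.096 to 0.061), ELOVL6 (−1.20 to 0.25) and 7 transcripts, namely SREBF1 ENST00000355815 (−0.40 to 1.29), ACACA ENST00000616317 (−0.085 to 3.24), FADS1 ENST00000350997 (−0.11 to 0.092), ELOVL5 ENST00000370918 (−4.12 to 5.95), ENST00000304434 (−0.46 to 0.42) and ENST00000542638 (−4.77 to 0.24), and ELOVL6 ENST00000394607 (−0.31 to 1.06). The cause was not tested.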
